A study of Mus musculus with 10 samples.

Results

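The hepatocytes compared here were collected at zeitgeber time (ZT) 0 and at ZT18. Zeitgeber time counts hours in the light-dark cycle, with lights on at ZT0 by convention, so the interval from ZT18 to ZT0 covers the later part of the dark phase. All cells of the 3 ZT0 libraries and the 2 ZT18 libraries were taken, which is 5 of the 10 libraries of the series and 10201 of its 18378 cells. The UMI counts (distinct tagged molecules) of each library were summed over its cells, so that 1 library was 1 replicate. Rows of Mup genes, which encode major urinary proteins, and of pseudogenes were left out.

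Every library came from male C57BL/6 mice labelled 3 months old and fed regular chow ad libitum. Mice of both times were anaesthetised with ketamine and xylazine. Hepatocytes were freed by collagenase perfusion, purified on a Percoll gradient and sequenced with the 10x Chromium 3' kit, version 2. No genotype or drug separated the groups, and ZT was the only stated difference. The labels do not give the number of mice behind a library, so the p-values measure only the spread between these libraries, which may be technical.

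Hepatocytes do most of the metabolic and secretory work of the liver and carry their own circadian clock. In that clock the activator ARNTL, paired with CLOCK or NPAS2, switches on its own repressors, the PER and CRY proteins and the nuclear receptors NR1D1 and NR1D2. The loop also drives output factors such as DBP and TEF, and it meets daily signals from feeding, body temperature and hormones. The late dark phase is when a night-active mouse moves from feeding towards rest.

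The 3 ZT0 libraries held 1795 to 2860 cells and 5729487 to 6728285 UMIs, and the ZT18 libraries held 1678 and 1787 cells and 3181006 and 3711102 UMIs. Median UMIs per cell were 2320, 2130 and 2662 at ZT0 and 1657 and 1925 at ZT18. Mitochondrially encoded genes took 16.5%, 18.1% and 16.7% of UMIs at ZT0 and 21.5% and 19.3% at ZT18. Neither property overlapped between the times, and their part in the differences below was not tested. The 10 hepatocyte markers together stood at 62721 to 78826 CPM (counts scaled to the same total in every library) at ZT0 and at 65186 and 74633 CPM at ZT18. All 9 lymphocyte markers in the files were at 0, as were the macrophage markers C1qa, C1qb, C1qc, Clec4f and Csf1r. Erythroid markers summed to 102 to 109 CPM at ZT0 and to 127 and 386 CPM at ZT18. Cholangiocyte markers summed to 20.8 to 118 CPM and to 14.8 and 26.1 CPM. Within ZT18 the libraries correlated at r = 0.980 across genes, within ZT0 at 0.960 to 0.967, and between the times at 0.949 to 0.964, where genes are not independent replicates.

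A few properties set the ZT18 libraries apart. Pseudogene rows took 0.776% and 0.780% of their UMIs, against 0.183% to 0.354% in the other 8 libraries. In both ZT18 libraries 40 gene entries exceeded 5 CPM and 3 times their level in every other library, and 32 of the 40 were pseudogene rows. Rps12, Cyp3a41b and Mettl7a2 were among the rest. The same rule gave 1 entry at ZT0, 1 at ZT6 and 2 at ZT12. In the opposite direction, every other library exceeded 5 CPM and 3 times both ZT18 libraries for 3 entries, Isg15, Lpl and Mt1. That reversed rule gave 0 entries at ZT0, 0 at ZT6 and 1 at ZT12. The ZT18 libraries also carried the sample indices SI-GA-4F and SI-GA-4G, and no other library had an index with the numeral 4. Whether their preparation or read mapping differed is not given in the sources used here, and such a difference cannot be told apart from time. In the library labelled ZT18 A, 117 UMIs of Xist, the RNA of the inactive X chromosome, lay in 64 of 1678 cells (3.81%). The other 4 libraries compared held 1 Xist UMI in all, although every mouse was labelled male. UMIs of the Y-linked genes Ddx3y, Eif2s3y, Kdm5d and Uty were found in 26.6% of those 64 cells and in 18.3% of the other cells of that library. Without ZT18 A, which left 1 ZT18 library, most calls were lost. The exceptions among the called genes still tested were Rps12 (log2 fold change -3.06 in that fit) and the haemoglobin genes, whose difference lay in ZT18 B.

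After a filter of a mean of at least 3 CPM over the 10 libraries, 8872 genes were tested with edgeR's quasi-likelihood test and Benjamini-Hochberg adjustment. At an adjusted p under 0.05, 45 genes (0.507%) were called: 15 (0.169%) higher and 30 (0.338%) lower at ZT0. At an unadjusted p under 0.05 there were 1224 genes (13.8%). In 1509 genes (17%) all 3 ZT0 libraries lay above both ZT18 libraries, and in 1474 (16.6%) all 3 lay below. Of the 45 called genes, 44 had libraries that did not overlap. The exception was the haemoglobin gene Hba-a2. With the spread taken from the 5 libraries compared instead of all 10, 4 genes passed. Without ZT18 B, 2 genes passed, and Rps12 was the 1 gene called without each library in turn. The median log2 fold change of all tested genes, given throughout as ZT0 minus ZT18, was 0.03, with a median standard error (SE) of 0.28.

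**Figure D1:**
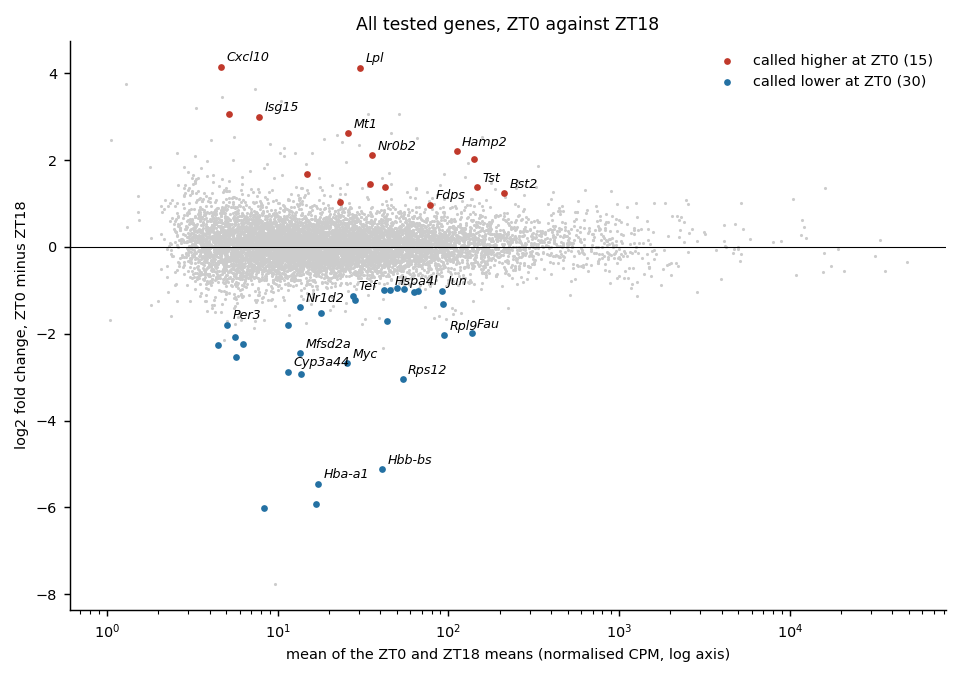
Each point is 1 of the 8872 tested genes, with the mean of the 2 group means on the x axis (normalised CPM, log axis) and the log2 fold change, ZT0 minus ZT18, on the y axis. The 15 genes called higher at ZT0 (red) reach 4.16 and the 30 called lower (blue) reach -6.01, and the 4 haemoglobin genes form the lowest called points.

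Clock genes changed in both directions. Npas2, the partner that can replace CLOCK in the activating pair, was at 8.29, 7.27 and 12.3 CPM in the ZT0 libraries and at 1.32 and 0.873 CPM in the ZT18 libraries (CPM here and below are normalised by TMM factors). All ZT0 libraries were several times above both ZT18 libraries, from 160 against 7 UMIs. Npas2 rose by a log2 fold change of 3.06 ± 0.48 (SE; adjusted p = 0.0225, edgeR's quasi-likelihood test). Its mean was 0.400 ± 0.00615 CPM at ZT6 (SD, n = 2), and no ZT12 library held a UMI, so ZT0 was its highest time of the 4 sampled. Arntl itself had 22.0, 14.4 and 30.2 CPM at ZT0 and 16.5 and 13.1 CPM at ZT18, ranges that overlap, with a log2 fold change of 0.59 ± 0.34 (adjusted p = 0.460). Clock also overlapped between the times, with means of 48.4 ± 1.05 CPM (SD, n = 3) and 43.0 ± 6.67 CPM (n = 2).

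The repressor gene Nr1d2 (REV-ERB beta) and the period gene Per3 were lower at ZT0. Nr1d2 stood at 7.69, 8.38 and 6.41 CPM at ZT0 and at 21.8 and 17.5 CPM at ZT18. Its lowest ZT18 library was above every ZT0 library, and its log2 fold change was -1.38 ± 0.23 (adjusted p = 0.0225). Per3 had 2.02, 2.69 and 2.02 CPM at ZT0 and 7.27 and 8.44 CPM at ZT18, from 39 and 51 UMIs, and a log2 fold change of -1.79 ± 0.32 (adjusted p = 0.0256). Tef, a transcription factor of clock output that binds D-box elements, fell by 1.13 on the log2 scale, SE 0.22 (adjusted p = 0.0362), from 41.3 and 34.9 CPM at ZT18 to 17.0, 20.4 and 14.8 CPM at ZT0. For Nr1d2, Per3 and Tef the highest of the 4 times was ZT12, at 75.3, 30.9 and 111 CPM, and ZT0 was the lowest.

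The remaining members of the core clock list did not pass the test. Of 18 tested members, 1 rose and 3 fell, 9 had all ZT0 libraries below both ZT18 libraries, and 2 had all above (50% and 11.1% of members, beside 16.6% and 17% of all genes). The median log2 fold change was -0.39. Dbp, which shares the D-box with Tef, had a log2 fold change of -1.61 ± 0.36 (adjusted p = 0.0797). Nr1d1 (REV-ERB alpha) was near its low point at both times, with means of 1.80 CPM at ZT0 and 0.311 CPM at ZT18 beside 32.2 CPM at ZT6. Both ZT18 libraries held under 3 UMIs of it, so no fold is given.

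**Figure D2:**
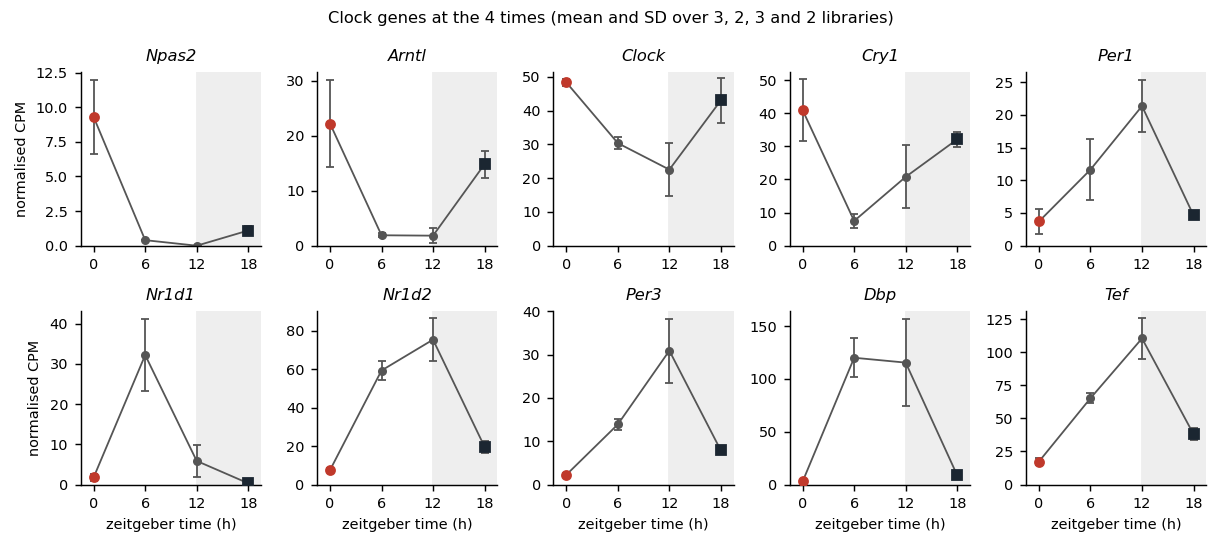
Normalised CPM (y axis, linear) of 10 clock genes against zeitgeber time in hours (x axis), as the mean with SD over the 3 ZT0, 2 ZT6, 3 ZT12 and 2 ZT18 libraries. ZT0 is red, ZT18 is a dark square, and grey shading marks the dark phase; Npas2 is highest at ZT0, while Nr1d2, Per3 and Tef are highest at ZT12 and lowest at ZT0.

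The promoters of Per3 and Tef are shown because, of the 4 called clock genes, theirs hold a clock motif (E-box or D-box), in capitals. The windows of Npas2 and Nr1d2 hold none of the motifs searched. Both windows run from 250 bases before to 50 bases after the gene's start, 5' to 3' along the gene (RefSeq, build GRCm38.p6). The Per3 window, on the minus strand at chr4:151044616-151044915, holds the D-box TTATGTAA from base 46 and again from base 93. The Tef window, on the plus strand at chr15:81802423-81802722, holds the E-box CACGTG from base 124, and a second Tef start in the table, not printed, holds it from base 113.
Per3: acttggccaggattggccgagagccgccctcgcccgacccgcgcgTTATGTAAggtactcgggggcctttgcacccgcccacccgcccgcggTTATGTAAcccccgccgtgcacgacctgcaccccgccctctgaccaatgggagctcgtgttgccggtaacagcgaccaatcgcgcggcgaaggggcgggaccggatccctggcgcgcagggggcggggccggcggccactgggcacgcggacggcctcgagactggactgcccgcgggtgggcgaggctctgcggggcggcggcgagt
Tef: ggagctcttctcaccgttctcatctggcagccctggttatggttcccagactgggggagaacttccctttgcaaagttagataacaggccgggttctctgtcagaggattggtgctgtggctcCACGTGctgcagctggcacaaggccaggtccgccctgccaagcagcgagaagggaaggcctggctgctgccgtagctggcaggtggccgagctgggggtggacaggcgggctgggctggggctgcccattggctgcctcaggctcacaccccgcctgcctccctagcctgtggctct
On either strand, the D-box was in 0.794% of the 6927 tested genes with a promoter in the table and in 2 of the 26 genes called lower at ZT0, Gde1 and Per3. The E-box was in 12.6% of tested genes, in 1 of the 26 lower genes (Tef) and in 2 of the 12 higher genes (Nr0b2 and Ptbp1). These matches describe the letters of the windows and are not binding sites.

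Genes of the interferon response were among those higher at ZT0. Isg15, an ubiquitin-like protein that interferons induce, had 17.0, 12.5 and 12.1 CPM at ZT0 and 1.32 and 2.04 CPM at ZT18. The lowest ZT0 library was far above the higher ZT18 library, and Isg15 rose 8.02-fold (SE 0.38 on the log2 scale, adjusted p = 0.00745, edgeR's quasi-likelihood test). Its UMIs were spread over cells, with at most 3 in any cell. At ZT6 and ZT12 its means were 15.8 and 12.8 CPM, close to ZT0, so ZT18 was the time that stood apart. Bst2, the antiviral membrane protein tetherin, had 381, 274 and 238 CPM at ZT0 and 132 and 119 CPM at ZT18. Its groups did not overlap, and it rose by a log2 fold change of 1.24 ± 0.26 (adjusted p = 0.0489). The call of Bst2 was lost in 13 of 24 alternative settings, including without ZT0 A and without ZT0 B.

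Cxcl10, a chemokine that attracts T cells, had the largest rise and was chosen for description after its values were seen. It held 43, 27 and 80 UMIs in the ZT0 libraries (8.70, 4.27 and 13.5 CPM) and 2 and 1 UMIs in the ZT18 libraries. Single cells held 16, 10 and 26 of the ZT0 UMIs, so its level rested on few cells. The ratio of its summed UMI rates was 18.8 (95% exact Poisson interval 6.31 to 92.1, counting error only), and the adjusted p was 0.0314. In the annotation it overlaps Art3.

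A list of 44 interferon response genes, written after Isg15, Bst2 and Cxcl10 had been seen, had 36 tested members. Of these, 3 rose and 0 fell, 18 had all ZT0 libraries above both ZT18 libraries and 1 all below (50% and 2.78%, beside 17% and 16.6% of all genes), and the median log2 fold change was 0.62. Rsad2 (viperin) had 15.8, 41.3 and 63.4 CPM at ZT0 and 11.9 and 3.49 CPM at ZT18 (log2 fold change 2.41 ± 0.57, adjusted p = 0.100). Psmb8, a subunit of the immunoproteasome, had a log2 fold change of 0.91 ± 0.26 (adjusted p = 0.144). The list was built around these samples and is not independent evidence of a direction. Macrophage markers summed to 1.93 to 6.81 CPM at ZT0 and to 0.269 and 0.943 CPM at ZT18, and their part in these differences was not tested. In sums over a library, fewer cells that express a gene and less RNA per cell cannot be told apart.

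The promoters of the 3 called interferon genes are shown because each holds the element GAAANNGAA, which was searched after their values had been seen and is in capitals. They lie on the minus strand at chr4:156200769-156201068 (Isg15), chr5:92348840-92349139 (Cxcl10) and chr8:71537423-71537722 (Bst2), with overlapping matches joined.
Isg15: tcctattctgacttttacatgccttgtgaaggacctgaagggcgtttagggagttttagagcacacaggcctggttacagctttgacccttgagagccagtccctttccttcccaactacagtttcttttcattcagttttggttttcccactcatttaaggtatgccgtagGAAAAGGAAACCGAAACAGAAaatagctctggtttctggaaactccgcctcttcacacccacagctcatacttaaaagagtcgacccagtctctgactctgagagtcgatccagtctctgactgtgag
Cxcl10: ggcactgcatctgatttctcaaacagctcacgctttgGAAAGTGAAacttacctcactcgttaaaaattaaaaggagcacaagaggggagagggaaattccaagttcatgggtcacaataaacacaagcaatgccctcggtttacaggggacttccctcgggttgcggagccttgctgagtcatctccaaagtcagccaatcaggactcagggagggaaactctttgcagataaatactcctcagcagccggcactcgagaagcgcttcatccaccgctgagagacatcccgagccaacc
Bst2: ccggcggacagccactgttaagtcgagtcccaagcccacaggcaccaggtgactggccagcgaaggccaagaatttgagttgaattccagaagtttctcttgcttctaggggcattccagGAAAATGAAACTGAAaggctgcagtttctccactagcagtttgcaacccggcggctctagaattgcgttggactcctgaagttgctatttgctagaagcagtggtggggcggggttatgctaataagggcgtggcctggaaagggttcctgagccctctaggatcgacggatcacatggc
The Isg15 window holds 3 matches, from base 173, the Bst2 window 2, from base 121, and the Cxcl10 window 1, from base 38. On either strand the element was in 8.45% of tested genes, in 3 of the 12 higher genes with a promoter in the table and in 3 of the 26 lower genes. The 3 higher genes are the same 3 after which the element was searched, so their share is no independent evidence.

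Of the listed genes of the acute phase response, in which the liver releases proteins in inflammation, 1 was called. Hamp2, a paralog of the iron hormone hepcidin, had 288, 114 and 150 CPM at ZT0 and 37.0 and 42.5 CPM at ZT18. Every ZT0 library exceeded both ZT18 libraries, and Hamp2 rose by a log2 fold change of 2.21 ± 0.37 (adjusted p = 0.0225, edgeR's quasi-likelihood test). It was the 1 called member of 24 tested, and 0 members were called lower. In 13 of the 24 (54.2%, beside 17% of all genes) all ZT0 libraries lay above both ZT18 libraries, in 0 all lay below, and the median log2 fold change was 0.67. No member passed without ZT18 A, without ZT18 B or with only the 5 libraries compared, and the median over the sets without 1 library was 0.48 to 0.77.

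Some acute phase genes, such as Saa1 and Hamp, varied widely among the ZT0 libraries, while Hp did not. Saa1 (serum amyloid A) had 471, 91.1 and 239 CPM at ZT0 and 39.6 and 52.4 CPM at ZT18, with a log2 fold change of 2.53 ± 0.66 (adjusted p = 0.116). The plasma haemoglobin binder Hp had 2332, 2451 and 2688 CPM against 1088 and 1365 CPM (log2 fold change 1.02 ± 0.31, adjusted p = 0.168). Hepcidin itself, Hamp, had 2079 CPM in ZT0 A and 208 and 408 CPM in the other ZT0 libraries, and the ZT18 libraries, at 402 and 319 CPM, lay between. The spread of Hamp at ZT0 therefore came from 1 library.

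Lipoprotein lipase and a nuclear receptor of bile acid control were also higher at ZT0. Lpl, which releases fatty acids from circulating triglyceride and is scarce in adult liver, had 43.3, 28.1 and 101 CPM at ZT0 and 4.29 and 2.33 CPM at ZT18, from 992 against 21 UMIs. The groups were far apart, with a log2 fold change of 4.13 ± 0.65 (adjusted p = 0.0225), and ZT6 and ZT12 had means of 35.7 and 33.3 CPM. Nr0b2 (SHP), which represses bile acid synthesis, had 28.3, 76.5 and 70.0 CPM at ZT0 and 12.6 and 14.3 CPM at ZT18 (log2 fold change 2.12 ± 0.40, adjusted p = 0.0314). Of the 19 tested genes of bile acid synthesis and its control, Nr0b2 was the 1 call. In 1 member, Nr0b2, all ZT0 libraries lay above and in 1 all below (5.26% each, beside 17% and 16.6% of all genes). The median log2 fold change of the list was -0.05. Cyp7a1, the rate-limiting enzyme of that pathway, had 77.9, 40.3 and 61.9 CPM at ZT0 and 58.5 and 132 CPM at ZT18, and its groups overlapped.

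In cholesterol synthesis 1 enzyme passed the test. Fdps, which makes farnesyl pyrophosphate, had 102, 109 and 101 CPM at ZT0 and 55.2 and 50.7 CPM at ZT18. Its ZT0 libraries were tightly grouped above the others, and it rose by a log2 fold change of 0.98 ± 0.20 (adjusted p = 0.0453). Of the 31-base words in its transcript ends, 90.8% also occur in another annotated gene, so its count is uncertain. Hmgcs1, an earlier step, had a log2 fold change of 0.88 ± 0.29 (adjusted p = 0.202). Over 21 tested members, 7 had all ZT0 libraries above and 2 all below (33.3% and 9.52%, beside 17% and 16.6% of all genes). The median log2 fold change was 0.24, and 0.02 without ZT0 B. The call of Fdps was lost without ZT0 B, ZT0 C, ZT18 A or ZT18 B, each left out alone.

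Fatty acid synthesis had 0 called genes of 21 tested by edgeR's quasi-likelihood test, with 2 higher and 6 lower at an unadjusted p under 0.05 (13.8% of all genes in either direction). Neither of the elongase genes Elovl6 and Elovl3 passed the test. Elovl6 had 54.6, 73.8 and 42.6 CPM at ZT0 against 199 and 105 CPM at ZT18 (log2 fold change -1.41 ± 0.31, adjusted p = 0.0673). Elovl3 had 455, 348 and 768 CPM at ZT0 against 180 and 110 CPM (log2 fold change 1.85 ± 0.45, adjusted p = 0.103). Fasn, the synthase itself, had a log2 fold change of -0.79 ± 0.29 (adjusted p = 0.250). In 7 members all ZT0 libraries were below both ZT18 libraries, and in 2 all were above (33.3% and 9.52%, beside 16.6% and 17% of all genes).

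Mt1 and Mfsd2a, a pair of genes on a list of metallothioneins and glucocorticoid-induced genes, passed the test in opposite directions. They were the 2 calls among 20 tested members, and the median log2 fold change was 0.07. In 6 members all ZT0 libraries lay above and in 4 all below (30% and 20%, beside 17% and 16.6% of all genes). Mt1 encodes a metal-binding metallothionein and had 45.9, 26.4 and 62.0 CPM at ZT0 and 5.62 and 8.73 CPM at ZT18 (log2 fold change 2.63 ± 0.51, adjusted p = 0.0398). It was still higher at ZT6 and ZT12, with means of 288 and 406 CPM. Mfsd2a, a transporter of lysophosphatidylcholine, had 7.08, 2.37 and 3.37 CPM at ZT0 and 22.5 and 23.3 CPM at ZT18. Its groups did not overlap, its log2 fold change was -2.45 ± 0.41 (adjusted p = 0.0225), and it was highest at ZT12, at 72.4 CPM.

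The other named genes higher at ZT0 have varied roles. Tst, the mitochondrial enzyme rhodanese, had 236, 212 and 187 CPM at ZT0 and 81.6 and 81.5 CPM at ZT18 (log2 fold change 1.38 ± 0.24, adjusted p = 0.0225). Pfn1, the actin-binding protein profilin, had 352, 131 and 202 CPM at ZT0 and 57.5 and 54.4 CPM at ZT18 (log2 fold change 2.03 ± 0.35, adjusted p = 0.0225). Atg101, a component of the complex that starts autophagy, rose by a log2 fold change of 1.38 ± 0.21. Ptbp1, a splicing regulator, rose by 1.04 ± 0.21, Wdr83os by 1.45 ± 0.24 and Tcp11l2 by 1.68 ± 0.33. In the annotation Wdr83os overlaps Wdr83, Ptbp1 overlaps Plppr3 and, among the genes lower at ZT0, Per3 overlaps Camta1. Whether the counting used strand is not given in the sources used here. On a list of 27 other autophagy genes, 5 had all ZT0 libraries above and 5 all below (18.5% each, near all genes), 0 were called and 1 had an unadjusted p under 0.05. Actins and tubulins had 8 of 13 members with all ZT0 libraries above and 1 all below (61.5% and 7.69%, beside 17% and 16.6% of all genes). None was called by edgeR's quasi-likelihood test, 5 were higher and 1 lower at an unadjusted p under 0.05 (13.8% of all genes in either direction), with a median log2 fold change of 0.48.

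**Figure D3:**
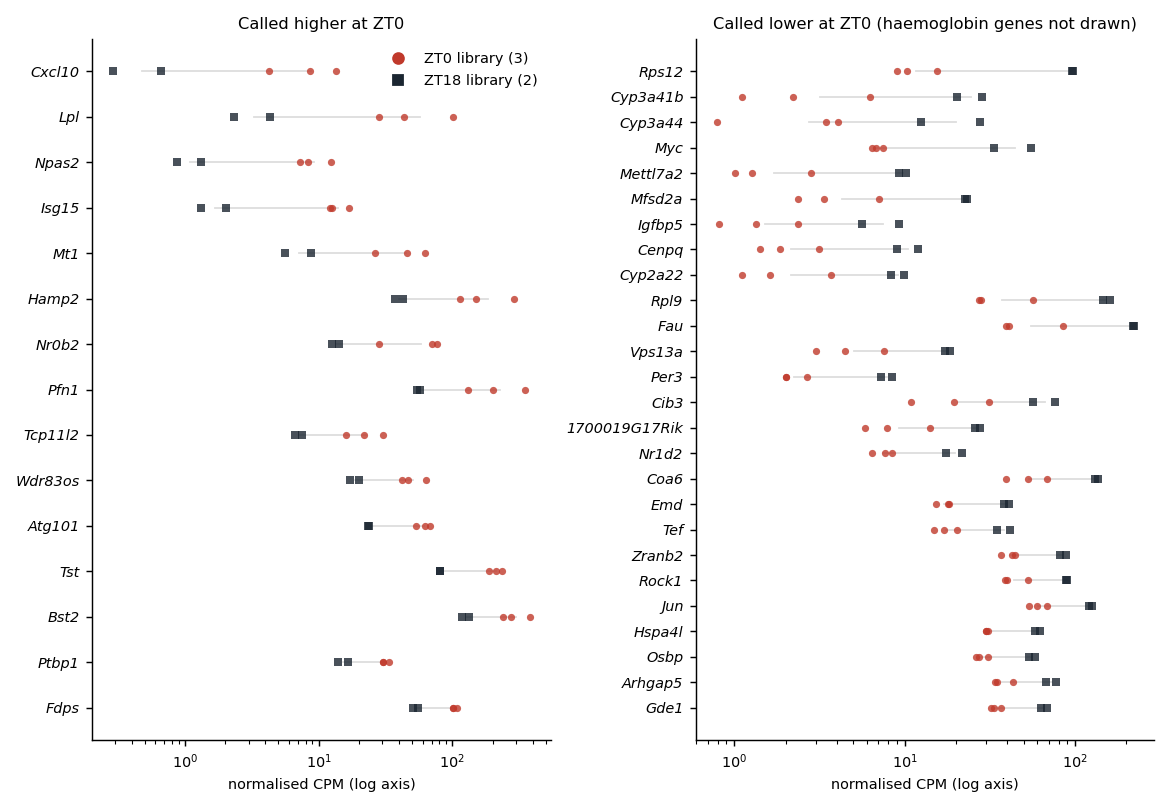
Normalised CPM (x axis, log) in each library of the 15 genes called higher at ZT0 (left) and of 26 of the 30 called lower (right; the 4 haemoglobin genes are not drawn), with 1 gene per line, ordered by fold change. Red circles are the 3 ZT0 libraries and dark squares the 2 ZT18 libraries, and a grey line joins the group means; in every gene drawn the circles and squares do not overlap.

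The immediate early genes Myc and Jun, transcription factors that growth signals and stress induce, were lower at ZT0. Myc had 6.47, 6.80 and 7.42 CPM at ZT0 and 33.4 and 55.3 CPM at ZT18. The ZT0 libraries were close together and all below both ZT18 libraries, and the log2 fold change was -2.68 ± 0.44 (adjusted p = 0.0225, edgeR's quasi-likelihood test). Jun had 59.7, 68.6 and 53.9 CPM at ZT0 and 125 and 120 CPM at ZT18, and it fell by 1.01 on the log2 scale, SE 0.19 (adjusted p = 0.0362). Of 20 tested immediate early genes these were the 2 calls, 4 had all ZT0 libraries below (20%) and 3 all above (15%), near the shares of all genes, and the median log2 fold change was -0.05. Egr1 had 50.2, 109 and 291 CPM at ZT0 and 53.5 and 121 CPM at ZT18, and Junb likewise overlapped.

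Of the chaperones, 1 passed the test, lower at ZT0. Hspa4l, a nucleotide exchange factor of the HSP70 system, had 29.9, 30.2 and 30.7 CPM at ZT0 and 58.5 and 62.0 CPM at ZT18. It fell by 0.99 on the log2 scale, SE 0.18 (adjusted p = 0.0256), and was lower still at ZT6 and ZT12, at 15.6 and 15.4 CPM. Hsp90aa1, the inducible HSP90, had 377, 260 and 307 CPM at ZT0 and 435 and 536 CPM at ZT18 (log2 fold change -0.63 ± 0.22, adjusted p = 0.223). Of 29 tested cytosolic and mitochondrial chaperones, 1 fell, 11 had all ZT0 libraries below (37.9%, beside 16.6% of all genes) and 2 all above, with a median log2 fold change of -0.21. The call was lost without ZT0 B, ZT0 C, ZT18 A or ZT18 B, each left out alone, and the median was -0.11 without ZT0 B.

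Several calls lower at ZT0 concern genes with near-identical copies. Rps12, a ribosomal protein, had 10.3, 9.01 and 15.5 CPM at ZT0 and 95.8 and 97.0 CPM at ZT18, with the lowest adjusted p of all genes (log2 fold change -3.05 ± 0.33, adjusted p = 0.0020). Its groups were far apart and it was near 10 CPM at ZT6 and ZT12 too, at 10.1 and 9.85 CPM. Rpl9 had 27.9, 56.3 and 27.5 CPM at ZT0 and 145 and 159 CPM at ZT18, and Fau, the precursor of ribosomal protein S30, had 39.4, 40.9 and 85.5 CPM against 218 and 220 CPM. Their log2 fold changes were -2.03 ± 0.36 and -1.98 ± 0.31 (adjusted p = 0.0256 and 0.0225).

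Transcript ends were compared with all GENCODE M21 transcripts in words of 31 bases over the last 300 bases. Words shared with another annotated gene made up 87.1% of the end of Rps12, 60.7% of Rpl9, 77.4% of Fau and 100% of Cyp3a41b. Of 248 tested genes with at least 50% shared, 7 were called lower at ZT0 (2.82%), 3 of them haemoglobin genes, and 1 higher. Of the 8384 with less, 22 were called lower (0.262%) and 14 higher (0.167%). Among the pseudogene rows that were left out, 43 of the 73 that could be tested were lower at ZT0 and 0 higher, with a median log2 fold change of -1.84. For Rps12, Rpl9, Fau and Cyp3a41b a change in RNA and a change in how reads were shared between copies cannot be told apart. Over all 81 tested ribosomal proteins, 2 fell, and the median log2 fold change was -0.11. In 9 all ZT0 libraries lay below (11.1%) and in 2 all above (2.47%), beside 16.6% and 17% of all genes.

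Cyp3a41b and Cyp3a44, cytochrome P450 genes known for higher expression in female than in male mouse liver, were lower at ZT0. Cyp3a41b had 2.22, 1.11 and 6.24 CPM at ZT0 and 28.4 and 20.4 CPM at ZT18 (log2 fold change -2.92 ± 0.46, adjusted p = 0.0225). Cyp3a44 had 3.44, 0.791 and 4.05 CPM at ZT0 and 27.8 and 12.5 CPM at ZT18 (log2 fold change -2.87 ± 0.53, adjusted p = 0.0314). Both were higher in ZT18 A, the library with Xist, than in ZT18 B, and both also stood above the ZT0 libraries in ZT18 B. Words shared with another gene made up 40% of the transcript end of Cyp3a44. Without either ZT18 library, neither gene passed the test. The part of the cells with Xist in these levels was not tested.

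Cyp3a41b, Cyp3a44 and Cyp2a22, all called lower at ZT0, are not on a list of P450 genes of families 1 to 3 and their partners. Of its 34 tested members, 0 were called by edgeR's quasi-likelihood test, and 12 were higher and 1 lower at an unadjusted p under 0.05 (13.8% of all genes in either direction). In 17 (50%, beside 17% of all genes) all ZT0 libraries were above both ZT18 libraries, in 2 all were below, and the median log2 fold change was 0.41 (0.26 without ZT0 C, 0.59 without ZT0 B). Cyp2c40 had 39.8, 138 and 99.1 CPM at ZT0 and 10.2 and 11.6 CPM at ZT18 (log2 fold change 3.07 ± 0.73, adjusted p = 0.100). Cyp1a2 had 338, 320 and 967 CPM at ZT0 and 211 and 296 CPM at ZT18. Por, the reductase that supplies these enzymes with electrons, had 43.1, 74.6 and 94.1 CPM at ZT0 and 106 and 119 CPM at ZT18. Several P450 genes are pericentral, and the 8 pericentral landmarks summed to 10155, 6757 and 15278 CPM at ZT0 and to 7085 and 7591 CPM at ZT18. In 6 of them all ZT0 libraries lay above and in 0 all below (75% and 0%, beside 17% and 16.6% of all genes). Their median log2 fold change was 0.93, and 0 were called. The 8 periportal landmarks summed to 2928, 3613 and 3014 CPM at ZT0 and to 4616 and 3870 CPM at ZT18. In 2 of these all ZT0 libraries lay above and in 3 all below (25% and 37.5%), with a median log2 fold change of -0.22. The part of the landmark levels, of which the pericentral were highest in ZT0 C, in the P450 values was not tested.

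The remaining named genes lower at ZT0 were Vps13a, a lipid transfer protein, with 4.45, 7.59 and 3.03 CPM against 18.5 and 17.2 CPM at ZT18, and the kinetochore gene Cenpq. Cenpq had 1.42, 3.16 and 1.85 CPM at ZT0 and 11.9 and 9.03 CPM at ZT18, from 38 and 67 UMIs, and overlaps Mut in the annotation. Cib3, a calcium-binding protein gene, fell by 1.70 on the log2 scale, SE 0.35, and the uncharacterised 1700019G17Rik by 1.53, SE 0.31. Adjusted p-values of these 4 were 0.0225 to 0.0489 by edgeR's quasi-likelihood test. Outside the naming rule, and so chosen after their values were seen, were 10 more called genes. Emd (emerin), of the inner nuclear membrane, had means of 17.1 ± 1.69 CPM at ZT0 (SD, n = 3) and 39.7 ± 1.93 CPM at ZT18 (n = 2). Osbp, an oxysterol-binding protein, had means of 28.2 ± 2.44 and 56.0 ± 3.54 CPM. The kinase gene Rock1, Arhgap5, Gde1, Zranb2 and Coa6 fell by 0.95 to 1.32 on the log2 scale. Igfbp5, which binds insulin-like growth factors, Mettl7a2 and Cyp2a22 were each under 4 CPM in every ZT0 library and between 5.62 and 10.2 CPM at ZT18. Coa6 overlaps Tarbp1 and Mettl7a2 overlaps Methig1 in the annotation. Words shared with another gene made up 43.0% of the transcript end of Mettl7a2, which was among the 40 entries that stood apart in both ZT18 libraries.

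The haemoglobin genes had the largest folds and rested on 1 library. Hba-a1 had 0.607, 1.58 and 0 CPM at ZT0, 1.65 CPM in ZT18 A and 66.1 CPM in ZT18 B. In ZT18 B, 1 cell held 198 of its 227 UMIs and 1 cell held 448 of the 527 UMIs of Hbb-bs. Hbb-bs was at 5.38 CPM in ZT0 B and 5.95 CPM in ZT18 A, and Hba-a2 was lower in ZT18 A than in ZT0 B. The difference thus lay in ZT18 B. With the erythroid markers left out, 14 genes were called higher and 24 lower.

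No member of 4 further lists passed edgeR's quasi-likelihood test: the proteasome, the nuclear-encoded respiratory chain, haem synthesis and fatty acid oxidation. Their counts are read against 17% of all genes with all ZT0 libraries above, 16.6% with all below and 13.8% at an unadjusted p under 0.05. The proteasome had 12 of 37 members above (32.4%) and 1 below (2.70%), and a median log2 fold change of 0.35. At an unadjusted p under 0.05, 6 members were higher and 0 lower, in total close to the share of all genes. The respiratory chain had 13 of 86 above (15.1%) and 3 below (3.49%), and a median log2 fold change of 0.27. Of its members, 11 were higher and 0 lower at an unadjusted p under 0.05, in total also close to all genes. Haem synthesis had 5 of 12 members above (41.7%) and 3 below (25%), and 3 higher and 1 lower at an unadjusted p under 0.05. Its median log2 fold change was 0.36. Alas1, the rate-limiting enzyme, had the lowest log2 fold change of the list, -1.54 ± 0.34 (adjusted p = 0.0737). It had 68.8, 42.5 and 53.6 CPM at ZT0 and 166 and 153 CPM at ZT18. Alad, the next enzyme, had a log2 fold change of 0.91 ± 0.24 (adjusted p = 0.112). Fatty acid oxidation had 7 of 30 members above (23.3%) and 8 below (26.7%), and 6 higher and 3 lower at an unadjusted p under 0.05. Cyp4a14, a fatty acid hydroxylase under PPAR alpha, had 42.7, 191 and 101 CPM at ZT0 and 13.9 and 25.3 CPM at ZT18 (log2 fold change 2.50 ± 0.67, adjusted p = 0.118).

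**Figure D4:**
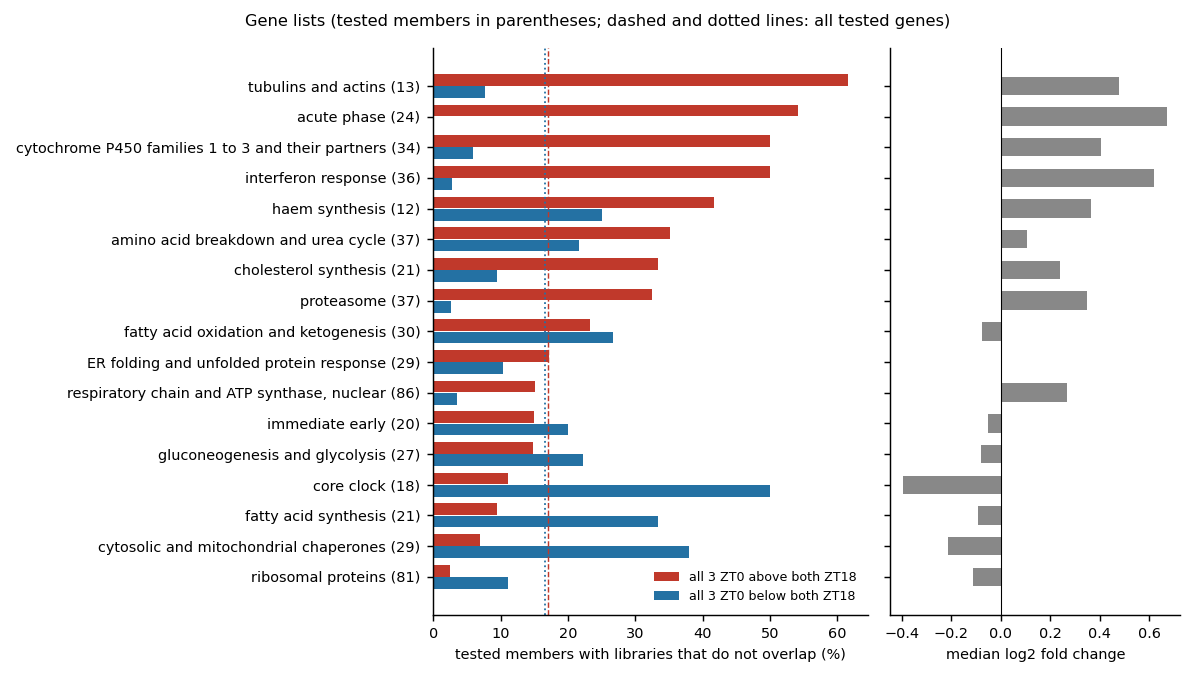
Left: for 17 gene lists (tested members in parentheses), the percent of tested members whose 3 ZT0 libraries all lie above (red) or all below (blue) both ZT18 libraries; the dashed red line (17%) and dotted blue line (16.6%) mark all tested genes. Right: the median log2 fold change, ZT0 minus ZT18, of the tested members, from -0.39 for the core clock to 0.67 for the acute phase.

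The 4 sampled times place these calls in the daily cycle. Among the 15 genes higher at ZT0, ZT0 was the highest of the 4 times in 10 and ZT18 the lowest in 13. Among the 30 genes lower at ZT0, ZT18 was the highest time in 25 and ZT12 in 5, and ZT0 was the lowest in 13. The clock genes Nr1d2, Per3 and Tef, together with Mfsd2a and Gde1, were the 5 that were highest at ZT12. For the genes highest or lowest at ZT18, time and any property shared by both ZT18 libraries cannot be told apart.

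Position in the lobule was examined by ordering the cells of each library from pericentral to periportal, by 8 landmark genes of each side, and cutting them into 3 equal parts. Called genes had the same sign within each part wherever they were tested: 40 of 40 in the pericentral, 43 of 43 in the middle and 38 of 38 in the periportal part. These parts hold the cells that gave the calls and are no independent check of sign. Within a part, 14, 15 and 11 of the genes passed the test. For 4 of 8866 genes (0.0451%) the difference between the times depended on zone by edgeR's quasi-likelihood test, and 468 (5.28%) had an unadjusted p under 0.05. These were Cyp2a4, Ier2, Egr1 and Cyp7b1.

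Ier2, an immediate early gene, had 27.9, 38.2 and 44.5 CPM at ZT0 and 71.1 and 65.1 CPM at ZT18 in the pericentral part. In the periportal part it had 26.1, 46.3 and 62.7 CPM at ZT0 and 30.7 and 29.0 CPM at ZT18. It was thus lower at ZT0 in every library near the central vein, while near the portal vein the libraries overlapped. Cyp7b1, an oxysterol hydroxylase of bile acid synthesis, had 105, 18.2 and 96.4 CPM at ZT0 and 153 and 168 CPM at ZT18 in the periportal part, and its libraries overlapped in the pericentral part. Cyp2a4, a steroid hydroxylase gene, had 4, 14 and 3 pericentral UMIs at ZT0 and 36 and 27 at ZT18, and 3, 58 and 6 periportal UMIs at ZT0 and 1 and 1 at ZT18. Egr1, another immediate early gene, had overlapping libraries in both outer parts.

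**Figure D5:**
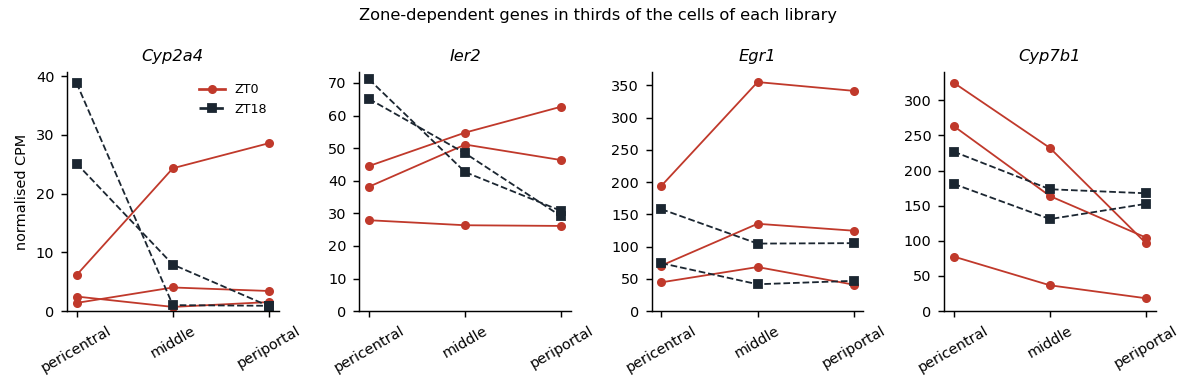
Normalised CPM (y axis, linear, from 0) in the pericentral, middle and periportal parts of the cells (x axis) for the 4 zone-dependent genes, with 1 line per library. Red solid lines are the 3 ZT0 libraries and dark dashed lines the 2 ZT18 libraries; pericentral Cyp2a4 and Ier2 are highest in the ZT18 libraries.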

How the data were processed

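Per the labels' protocols, the authors sequenced 10 hepatocyte libraries (3 at ZT0, 2 at ZT6, 3 at ZT12, 2 at ZT18) with the 10x Chromium kit. The deposited values are UMI counts per gene and cell, whole numbers with no normalization. Per the submitters' processing notes, Cell Ranger, mm10 and hg19 were named, with no version or role. Symbols were matched to GENCODE M21 and RefSeq. The members and gene lists were chosen with earlier results of these data known.

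Counts were summed per library over all deposited cells, with no filter on cells or doublets. From 14812 rows, 21 Mup and 173 pseudogene rows were left out. edgeR 4.0.16 (R 4.3.3; TMM scaling, quasi-likelihood test, Benjamini-Hochberg adjustment) fitted all 10 libraries with 1 mean per time and 6 residual degrees of freedom, keeping genes whose mean over the libraries reached 3 CPM. Only the ZT0 minus ZT18 contrast was tested. Zone dependence was tested on sums over the outer parts of the cells, with library as a block. Named genes were the 12 largest called changes in each direction, at 10 CPM or more in the higher group and with groups that do not overlap, together with up to 6 members of each list. Summed marker and landmark levels are not TMM-scaled. DESeq2 1.42.0 and limma 3.58.1 served as alternatives. The method was also run on simulated counts that had the same spread in every group, so a spread that differs between groups was not covered. Shared cell barcodes were not counted, since cell columns carry running numbers. Depth was 3181006 to 6728285 UMIs per library, and intervals cover counting error only.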

Additional observations from a re-analysis of the deposited data

Results flagged for a closer look

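For 4 genes the test of the difference itself found that the change between ZT18 and ZT0 was not the same in the periportal as in the pericentral part of the cells (edgeR's quasi-likelihood test, periportal change minus pericentral change, log2). The value was 6.81 ± 0.83 for Cyp2a4 (adjusted p = 1.35e-05), 1.46 ± 0.26 for Ier2 (0.00865), 1.23 ± 0.24 for Egr1 (0.0225) and -1.30 ± 0.24 for Cyp7b1 (0.0162). Cyp2a4 rested on few UMIs, with 1 periportal UMI in each ZT18 library and 58 of the 67 periportal ZT0 UMIs in ZT0 B. Words shared with another gene made up 44.8% of its transcript ends. Egr1 was higher at ZT0 C than in any other library in both outer parts (194 and 342 CPM). Without ZT0 B, 0 of the 4 genes passed, and 1 other did. Without ZT18 A or without ZT18 B, 1 gene passed.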

How the results depend on the processing

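The 45 calls became 197 with no filter on low counts (102 higher, 95 lower), 26 at a mean of at least 20 CPM, 90 with DESeq2 (44 higher, 46 lower; 34 shared), 99 with Mup and pseudogene rows kept (16 higher, 83 lower), 27 without the 5% of cells with the most UMIs and 25 after thinning to the smallest library. With only the 5 libraries compared and 3 residual degrees of freedom, 4 genes passed. Added after seeing the data, the pericentral, middle and periportal parts of the cells gave 17, 18 and 17 calls. Counts under the other 7 alternatives were 38 to 49. Leaving out 1 library gave 2 to 51 calls: 51 without ZT0 A, 28 without ZT0 B, 24 without ZT0 C, 5 without ZT18 A and 2 without ZT18 B, where the lone ZT18 library is assumed to vary like the other groups. Rps12 alone kept its call without each library, and 0 named genes reversed. The 4 zone-dependent genes became 1 with the cells cut into 2 parts instead of 3, and 1 to 14 when 1 library was left out (14 without ZT0 A).

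With the letter as a replicate block, 114 genes passed over 10 libraries (41 higher, 73 lower) and 346 over the 5 libraries (184 higher, 162 lower; 1 residual degree of freedom). All 45 calls were among both, and 5 zone-dependent genes passed with a letter-by-zone block. The libraries share only a letter: deviations of ZT0 A and ZT18 A correlated at 0.0969 and those of ZT0 B and ZT18 B at 0.0718. Depth limits low genes: Cxcl10, Npas2 and Isg15 had under 12 UMIs at ZT18.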
